A study of Mus musculus with 23 samples.

Results

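Fibronectin, periostin and 8 further genes of the matrix around cells were described here across sorted mouse mammary cells. The 10 genes were taken by symbol from all 3 deposited expression tables: Fn1, Postn, Tnc, Sparc, Spp1, Thbs1, Thbs2, Has2, Dcn and Serpine2. They are 10 of 24918 gene symbols listed in any of the tables, and all 10 were present in each table. Their choice used no measured value, but it was made with earlier results of these data known.

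The study profiled the transcriptomes of normal mammary populations and of mouse mammary tumours, and the values are RPKM, which scale reads for gene length and sequencing depth. Each library came from about 2000 cells sorted by flow cytometry. Normal wild-type C57BL6J glands gave 4 populations of 2 libraries each: mammary stem cells of the fetus (fMaSC) at embryonic day 18 and, from adult mice, luminal progenitors, mature luminal cells and basal cells. Basal cells are the contractile outer layer of the ducts, and luminal cells line the lumen. PY230 is a mouse mammary tumour cell line of C57BL6J origin, and its cells grew as tumours in syngeneic hosts after transplantation. These tumours gave basal SOX10 high, luminal SOX10 high and luminal SOX10 low cells, with 2 libraries each. All 6 PY230 libraries therefore derive from 1 cell line. C3-1-TAg mice of the FVB strain carry a transgene that drives the SV40 T antigen in mammary epithelium, and they form tumours spontaneously. From them come 5 libraries of SOX10 high and 4 of SOX10 low cells, each titled basal. The SOX10 fractions are named for the level of this transcription factor. Sox10 itself was at 91.9 to 164 RPKM in the C3-1-TAg SOX10 high libraries and at 2.10 to 40.9 RPKM in the SOX10 low libraries. In the PY230 luminal cells Sox10 was at 101 and 66.9 RPKM in the SOX10 high libraries and at 13.6 and 11.01 RPKM in the SOX10 low libraries. The labels call the libraries of a group biological replicates but tie none to an animal or tumour, so the p-values below measure the spread between libraries. How the fractions were gated is not given in the sources used.

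Fibronectin is a secreted glycoprotein that cells assemble into fibrils through integrins, and these fibrils hold collagen and other matrix proteins. The matricellular proteins (periostin, tenascin C, SPARC, osteopontin and the thrombospondins) sit in this matrix and change how cells adhere, migrate and receive growth factors, with little structural role of their own. In the mammary gland most interstitial matrix is made by stromal fibroblasts, while basal cells contact the basement membrane and make matrix proteins too. The hyaluronan synthase Has2, the collagen-binding proteoglycan decorin (Dcn) and the serine protease inhibitor protease nexin-1 (Serpine2) complete the list.

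The promoters of 4 members are shown because the results below turn on pairs of genes that were high in the same cells. Postn and Sparc were both high in adult basal cells and in the basal PY230 cells, and Spp1 and Serpine2 were the members called higher in SOX10 high than in SOX10 low luminal PY230 cells. Each sequence runs from 250 bases before to 50 bases after a transcription start of RefSeq (build GRCm38.p6), 5′ to 3′ on the gene's strand. The build of the deposited values is mm9, so these coordinates belong to the RefSeq table only. Of the members, 6 of 10 matched that table: Postn, Tnc, Sparc, Spp1, Thbs2 and Serpine2. Capitals mark the letters TATAAA, the core of the TATA box, found on the strand shown.
Postn (chr3:54360857-54361156, plus strand): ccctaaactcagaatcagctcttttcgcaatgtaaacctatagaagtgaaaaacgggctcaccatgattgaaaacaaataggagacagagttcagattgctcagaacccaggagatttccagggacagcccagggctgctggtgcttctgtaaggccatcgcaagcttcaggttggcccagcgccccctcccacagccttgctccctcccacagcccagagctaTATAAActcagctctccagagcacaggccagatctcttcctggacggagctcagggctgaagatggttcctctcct
Sparc (chr11:55420031-55420330, minus strand): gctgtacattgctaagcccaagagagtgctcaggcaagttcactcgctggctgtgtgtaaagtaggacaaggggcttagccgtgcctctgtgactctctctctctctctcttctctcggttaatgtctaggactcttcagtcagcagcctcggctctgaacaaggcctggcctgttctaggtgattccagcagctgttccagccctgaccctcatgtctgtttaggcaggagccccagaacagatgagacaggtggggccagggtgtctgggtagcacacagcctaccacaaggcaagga
Spp1 (chr5:104434861-104435160, plus strand): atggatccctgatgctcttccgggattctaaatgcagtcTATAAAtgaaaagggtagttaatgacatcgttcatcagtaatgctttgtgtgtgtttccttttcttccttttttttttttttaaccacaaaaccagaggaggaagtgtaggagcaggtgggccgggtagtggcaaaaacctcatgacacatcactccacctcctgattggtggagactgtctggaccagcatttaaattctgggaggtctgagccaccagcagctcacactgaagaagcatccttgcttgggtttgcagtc
Serpine2 (chr1:79858616-79858915, minus strand): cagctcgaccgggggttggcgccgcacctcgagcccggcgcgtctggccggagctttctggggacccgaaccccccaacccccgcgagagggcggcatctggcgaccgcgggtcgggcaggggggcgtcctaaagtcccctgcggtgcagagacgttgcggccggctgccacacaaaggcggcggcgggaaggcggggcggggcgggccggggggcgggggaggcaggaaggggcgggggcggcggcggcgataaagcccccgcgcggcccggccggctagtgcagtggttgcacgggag

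Of these sequences, that of Postn held TATAAA 26 bases before the start and that of Spp1 held it 211 bases before the start. The sequences of Sparc and Serpine2 held none on either strand. The table holds another promoter each for Postn and Spp1, not shown, and neither held TATAAA, while that of Postn held ACAAT 164 bases before its start. Over both strands, TATAAA was found in 13.6% of the 32851 promoters of the table, which all have the same length. The shorter letters ACAAT, bound by SOX factors among others, occurred in 31% of them, GGAATG of the TEAD factors in 14.7% and TGANTCA of AP-1 in 7.81%, and none of the 4 sequences shown held any of the last 3. A match or its absence is a description of these letters only. The promoter of Serpine2 had a GC content of 77.7%, against a median of 52.7% over the table, while Postn had 53%, Sparc 55.3% and Spp1 45.3%.

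In each library 10056 to 12504 genes were at 1 RPKM or more. As RPKM holds no counts, the sequencing depth of a library is unknown and counting intervals cannot be given. From the spacing of low values, depth varied 1.82-fold between PY230 libraries, and from 0.631 to 1.29 of the first SOX10 high library between C3-1-TAg libraries, while it could not be read in the normal table. Libraries of a group differed least in the PY230 table, with a median residual SD of log2 values of 0.17, against 0.27 in the normal and 0.39 in the C3-1-TAg table. The 6 basal markers fixed for this work (Krt5, Krt14, Acta2, Trp63, Oxtr and Myh11) summed to 805 to 1718 RPKM in adult basal cells and to 10.4 to 17.7 RPKM in both adult luminal populations. They summed to 2349 to 2700 RPKM in basal and to 28.1 to 90.6 RPKM in luminal PY230 cells. In the C3-1-TAg libraries, titled basal, only 2 to 4 of the 6 markers reached 1 RPKM.

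In normal glands most members could be described as those shared by fetal and basal cells, those of basal cells and luminal progenitors, and those of fetal cells. Spp1 was in none of these groups. Neither was Dcn, which was highest in basal cells without a call of fMaSC above either luminal population. Periostin and SPARC were basal genes in the adult. Sparc, a calcium- and collagen-binding glycoprotein, was at 170.0 and 162 RPKM in fMaSC and at 232 and 201 RPKM in basal cells. It was at 1.996 and 8.45 RPKM in luminal progenitors and at 0.706 and 2.45 RPKM in the mature luminal libraries, so all 4 fetal and basal libraries stood above all 4 luminal ones. The log2 difference in RPKM + 1 between basal cells and luminal progenitors was 5.35 (SE 0.54, n = 2 against 2, limma adjusted p = 5.93e-04), and that between fMaSC and basal cells was -0.38 (SE 0.54, limma adjusted p = 0.567). Postn encodes periostin, which binds fibronectin and tenascin C and takes part in collagen crosslinking. It was at 467 and 590.4 RPKM in basal cells, at 29.5 and 34.7 RPKM in fMaSC, at 0.668 and 5.65 RPKM in luminal progenitors and at 0.26 and 1.66 RPKM in the mature luminal libraries. Basal cells thus had 16.4-fold the mean of fMaSC (log2 difference fMaSC minus basal -3.99, SE 0.63, limma adjusted p = 0.00138), and fMaSC in turn exceeded luminal progenitors (log2 difference 3.31, SE 0.63, limma adjusted p = 0.00399). The ranges of the 2 luminal populations overlapped for both genes. Of 5 fat cell markers, Fabp4, also made by endothelium, was the 1 that reached 1 RPKM in adult cells, at 65.6 and 233 RPKM in basal and at 6.14 to 48.4 RPKM in luminal libraries, and its part in these values was not tested.

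Tenascin C, hyaluronan synthase 2 and decorin followed the basal side at lower levels. Tnc, whose product interferes with adhesion to fibronectin, was at 3.48 and 2.75 RPKM in fMaSC and at 5.29 and 4.04 RPKM in basal cells, with 0.096 and 0.712 RPKM in luminal progenitors, and it was listed at 0 in both mature luminal libraries. It was higher in basal cells than in luminal progenitors by 2.04 (log2, SE 0.27, limma adjusted p = 0.00173). Has2, which makes the long hyaluronan chains of the pericellular coat, was at 47.2 and 188 RPKM in basal cells and at 29.6 and 30.9 RPKM in fMaSC. It was listed at 0 in both luminal progenitor libraries and reached 0.586 and 0.342 RPKM in mature luminal cells. The 2 basal libraries lay far apart. The call of fMaSC below basal cells (log2 difference -1.61, SE 0.56, limma adjusted p = 0.0383) was lost without either fMaSC library (-1.58 and -1.64). It was also lost with a pseudocount of 0.1 and with no filter on low values (limma adjusted p = 0.0592 and 0.0749). The difference itself was -2.60 without basal replicate 1 and -0.63 without basal replicate 2, and it was called in both cases. In basal replicate 2, with the higher Has2, endothelial markers summed to 44.7 RPKM and pericyte markers to 9.82 RPKM. In basal replicate 1 these sums were 8.43 and 1.17 RPKM. Macrophage and basal markers went the other way, at 15.5 and 805 RPKM in replicate 2 against 87.8 and 1718 RPKM in replicate 1. The part of such cells in these values was not tested. Dcn showed less contrast. It was at 49.7 and 50.0 RPKM in basal cells, at 14.7 and 15.2 RPKM in fMaSC, at 8.70 and 11.1 RPKM in luminal progenitors and at 23.2 and 4.13 RPKM in the mature luminal libraries. Basal libraries were the highest, and those of the other populations overlapped in part. Dcn did not pass the test between fMaSC and luminal progenitors (log2 difference 0.56, SE 0.62, limma adjusted p = 0.480) or mature luminal cells (0.52, SE 0.62, limma adjusted p = 0.504). Its difference between basal cells and luminal progenitors (log2 2.23, SE 0.62, limma adjusted p = 0.0285) was lost with no filter on low values (limma adjusted p = 0.063), without basal replicate 2 (0.0583) and without either progenitor library (0.130 and 0.0969).

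The 2 thrombospondins had different patterns. Thbs1, which can activate latent TGF-beta, was at 1378 and 1474 RPKM in basal cells and at 844 and 848 RPKM in luminal progenitors, ranking between 22 and 94 among all genes in these libraries. It was at 128 and 136 RPKM in fMaSC and at 21.8 and 49.4 RPKM in the mature luminal libraries. The order basal, luminal progenitor, fMaSC and mature luminal held in every library. Each step passed the test except the first: luminal progenitors exceeded fMaSC (log2 difference fMaSC minus luminal progenitor -2.68, SE 0.34, limma adjusted p = 6.37e-04), fMaSC exceeded mature luminal cells (1.97, SE 0.34, limma adjusted p = 0.00212), and the basal libraries lay above the progenitor libraries by 0.75 (SE 0.34, limma adjusted p = 0.124). Among adult luminal cells Thbs1 was 23.8-fold higher in progenitors by the means. Thbs2 was low throughout, at 2.46 and 4.12 RPKM in fMaSC and at 0.0702 to 1.54 RPKM in the 6 adult libraries. Its 3 calls in favour of fMaSC (log2 differences 1.35, 1.35 and 1.38 against basal, luminal progenitor and mature luminal cells, limma adjusted p = 0.0315, 0.0369 and 0.0309) were all lost under quantile normalization (limma adjusted p = 0.138, 0.176 and 0.200). All 3 were also lost with a pseudocount of 0.1, with no filter on low values and with median-of-ratios factors (limma adjusted p = 0.0622 to 0.124). The same held without either fMaSC library.

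**Figure D1:**
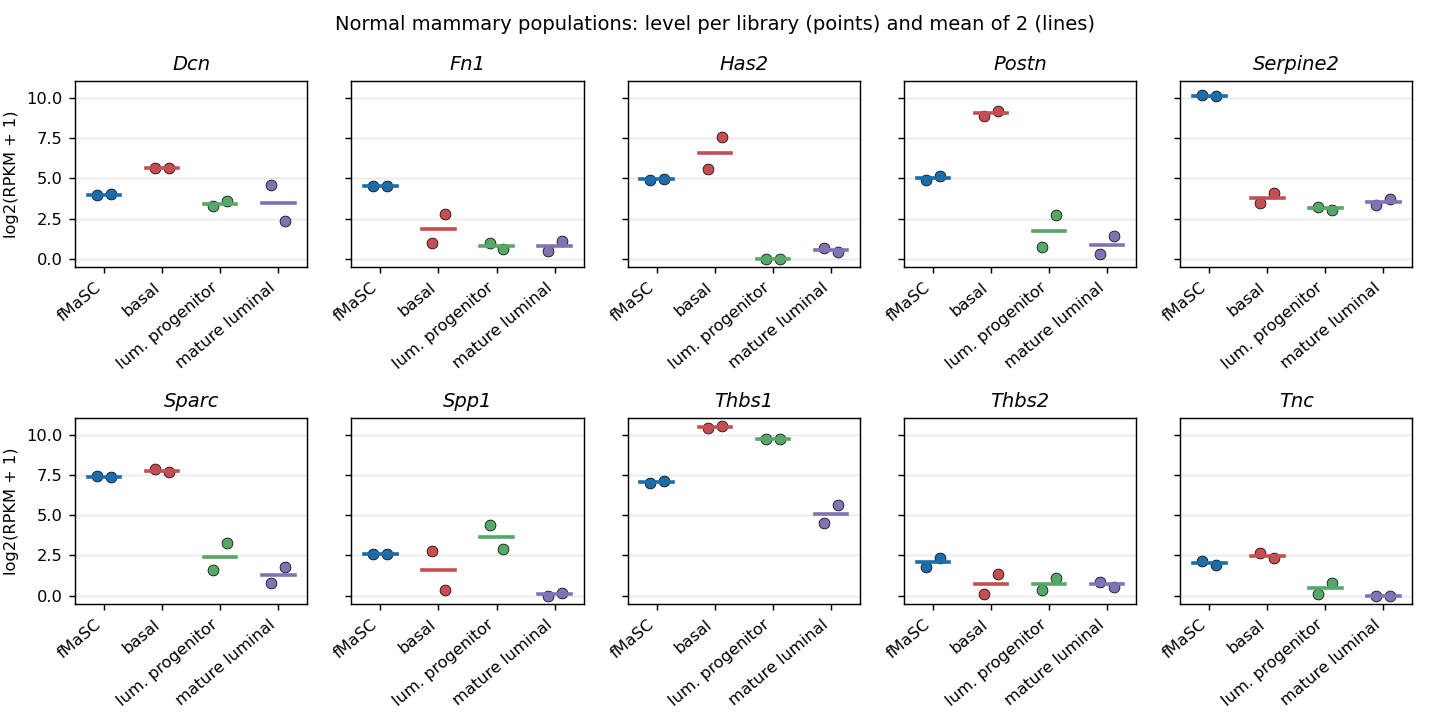
Log2(RPKM + 1) of the 10 genes in the 8 libraries of normal mammary populations, 1 panel per gene, 1 point per library (2 per population), with a line at the mean. Postn, Sparc and Has2 lie high in fMaSC and basal cells and low in both luminal populations, Thbs1 is high in basal cells and luminal progenitors, and Serpine2 is highest in fMaSC.

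Serpine2 and Fn1 were the fetal members. Serpine2, an inhibitor of thrombin and plasminogen activators, was at 1142 and 1102 RPKM in fMaSC, where it ranked 60 and 58 among all genes. In the 6 adult libraries it was at 7.33 to 15.9 RPKM. The log2 difference between fMaSC and basal cells was 6.37 (SE 0.25, limma adjusted p = 1.33e-05), the largest of any member in that comparison. No comparison among the 3 adult populations passed the test for Serpine2 (limma adjusted p = 0.0915, 0.453 and 0.327). Fn1 was at 22.0 and 22.2 RPKM in fMaSC, at 0.984 and 5.92 RPKM in basal cells, at 1.00 and 0.561 RPKM in luminal progenitors and at 0.439 and 1.15 RPKM in the mature luminal libraries. Against the adult populations in this order Fn1 was higher in fMaSC (log2 differences 2.64, 3.71 and 3.72, SE 0.54 each, limma adjusted p = 0.00459, 0.00122 and 9.98e-04). The 9 fibroblast markers fixed for this work (Col1a1, Col1a2, Col3a1, Pdgfra, Pdgfrb, Lum, Col6a3, Fap and Dpt) summed to 75.3 and 92.8 RPKM in fMaSC and to 9.25 to 18.3 RPKM in the adult libraries, and 8 of the 9 reached 1 RPKM in fMaSC. The 5 fat cell markers (Adipoq, Plin1, Car3, Retn and Fabp4) summed to 229 and 202 RPKM in fMaSC, where 4 and 5 of them reached 1 RPKM. Among these, Car3 was at 86.4 and 78.9 RPKM in fMaSC and at no more than 0.538 RPKM in adult libraries, and Retn was at 17.2 and 14.3 RPKM and listed at 0 in all 6 adult libraries. The part of such cells in the fetal values was not tested, and in a bulk library more cells of a type and more RNA per cell cannot be told apart.

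Spp1, which encodes osteopontin, a ligand of integrins and CD44, was highest in the 2 luminal progenitor libraries. Without a replicate term its difference fMaSC minus luminal progenitor did not pass the test (log2 -1.06, SE 0.77, limma adjusted p = 0.284). Nor did that of basal cells minus luminal progenitors (log2 -2.05, SE 0.77, limma adjusted p = 0.0757). Spp1 was at 19.6 and 6.54 RPKM in luminal progenitors, at 4.95 and 4.98 RPKM in fMaSC, at 5.99 and 0.298 RPKM in basal cells and at 0 and 0.127 RPKM in the mature luminal libraries. Mature luminal cells were below luminal progenitors (log2 difference -3.55, SE 0.77, limma adjusted p = 0.0178), a call lost without luminal progenitor replicate 1 (limma adjusted p = 0.115) and without either mature luminal library (0.0936 and 0.0931). Markers of macrophages, cells that can express Spp1, summed to 58.7 and 62.5 RPKM in luminal progenitors and to 16.4 and 18.2 RPKM in mature luminal cells. Cd68 made up most of both sums, at 57.1 and 60.2 RPKM and at 12.1 and 12.7 RPKM, and 1 or 2 of the 9 markers measured reached 1 RPKM in progenitors. The sum was 87.8 RPKM in the basal library with 5.99 RPKM of Spp1 and 15.5 RPKM in the other, with Lyz2 alone at 57.0 RPKM in the first. Their part in these values was not tested.

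Against the background of all 12553 genes tested, the members' counts were as follows. Between fMaSC and basal cells 3 members were higher and 4 lower in fMaSC, while 60.3% of all genes changed, 36.9% higher and 23.4% lower. Against luminal progenitors fMaSC had 7 members higher and 1 lower, where 50.6% of all genes changed, 35.5% higher and 15% lower. Against mature luminal cells 9 were higher and 0 lower in fMaSC, where 56.4% changed, 41.7% higher and 14.7% lower. Basal cells had 5 members higher than luminal progenitors and 0 lower (35.5% of all genes changed, 21% higher and 14.5% lower). They had 6 higher than mature luminal cells and 0 lower (48.6% changed, 28.8% higher and 19.8% lower). Mature luminal cells had 2 members lower than luminal progenitors, Spp1 and Thbs1, and 0 higher (22.1% changed, 13.4% lower and 8.63% higher). The median log2 difference of the members was 2.45 between fMaSC and luminal progenitors and 2.34 between basal and mature luminal cells, beside 0.39 and 0.12 over all genes tested. RPKM values favoured fMaSC over all genes: the median difference to basal, luminal progenitor and mature luminal cells was 0.27, 0.39 and 0.53, and the share of calls that were higher in fMaSC was 61.1%, 70.3% and 73.9%, against 49.4%, 49.6% and 50.8% after quantile normalization. That normalization also moved the share of calls higher in basal cells from 59.3% to 48.9% against luminal progenitors and from 59.2% to 46.7% against mature luminal cells, and the share higher in mature luminal cells against progenitors from 39.1% to 49.5%. Under it fMaSC had 2 members higher and 5 lower than basal cells, with Thbs2 no longer called and Tnc called lower (limma adjusted p = 0.038). Without an fMaSC library, 4 members were called between fMaSC and basal cells. The calls lost were those of Thbs2, Has2 and Dcn, the last with a log2 difference of -1.67 (limma adjusted p = 0.0489) with all libraries. Of the 9 called against mature luminal cells, Spp1 (2.49, limma adjusted p = 0.027) and Thbs2 were lost without either fMaSC or either mature luminal library. Without basal replicate 1, 8 were called between basal cells and luminal progenitors, and without mature luminal replicate 1, 1 was called between the luminal populations. With 1 library left out the calls over all genes came to as few as 4801, 3462 and 4404 for fMaSC against basal, luminal progenitor and mature luminal cells, 2486 and 3618 for basal cells against the luminal populations, and 932 between these.

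The members' relatives, receptors, proteases and TGF-beta genes, 73 listed genes of which 57 were tested in the normal table, moved in the following numbers. In basal cells 26 were higher and 5 lower than in luminal progenitors, and 38 higher and 4 lower than in mature luminal cells. Mmp2, a gelatinase, was at 69.7 ± 8.57 RPKM (SD, n = 2) in basal cells and 0.726 ± 0.571 RPKM in luminal progenitors, a log2 difference of 5.39 (limma adjusted p = 7.7e-05). Ctgf, a matricellular relative, was at 722 ± 440 RPKM in basal cells, at 19.8 ± 2.67 RPKM in fMaSC and at 2.53 ± 1.37 RPKM in mature luminal cells. Fetal cells had 12 listed genes higher and 23 lower than basal cells, where 60.3% of all genes were called, 36.9% higher and 23.4% lower. Fbln1, a fibulin that binds fibronectin, was higher in fMaSC (53.2 ± 3.0 against 1.498 ± 1.35 RPKM), and so was Hmmr, a hyaluronan-binding protein that also acts on the mitotic spindle (43.2 ± 3.63 RPKM, listed at 0 in basal cells). Among the receptors, 8 of the 15 tested were lower in fMaSC than in basal cells and 1 was higher. Itgav, the integrin alpha V chain that binds fibronectin, periostin and osteopontin, was at 17.6 ± 1.29 RPKM in fMaSC and at 190.3 ± 90.8 RPKM in basal cells. Between mature luminal cells and luminal progenitors, where 8.63% of all genes were higher and 13.4% lower, 1 listed gene was higher and 13 were lower. The 1 higher was the fibronectin receptor chain Itga5 (3.22 ± 0.41 against 1.06 ± 0.27 RPKM), beside the 13 lower. Together they numbered 7 to 9 without luminal progenitor replicate 1 or either mature luminal library. The osteopontin and hyaluronan receptor Cd44 fell from 168 ± 18 RPKM in progenitors to 12.1 ± 1.5 RPKM in mature luminal cells (log2 difference -3.69, limma adjusted p = 0.00176), beside Cyr61 with 338 ± 71 and 11.6 ± 0.71 RPKM.

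In PY230 tumours the basal cells had the highest levels of most members. Sparc was at 997 and 744 RPKM in basal SOX10 high cells, where it ranked 9 and 15 among all genes. It was at 65.5 and 97.1 RPKM in luminal SOX10 high and at 61.6 and 32.7 RPKM in luminal SOX10 low cells. The basal libraries stood far above all luminal ones, with a log2 difference to luminal SOX10 high cells of 3.42 (SE 0.34, n = 2 against 2, limma adjusted p = 4.95e-04). Postn was at 455 and 272 RPKM in basal cells, at 30.2 and 61.4 RPKM in luminal SOX10 high and at 43.0 and 14.8 RPKM in luminal SOX10 low cells (basal against luminal SOX10 high 2.999, SE 0.54, limma adjusted p = 0.00546). The 2 luminal groups overlapped in both genes. Of the 5 fat cell markers, only Fabp4 reached 1 RPKM. It was at 58.1 and 76.1 RPKM in the basal and at 1.26 to 10.0 RPKM in the luminal libraries. The 6 endothelial markers (Pecam1, Cdh5, Kdr, Tek, Emcn and Cldn5) summed to 5.88 and 7.65 RPKM in basal and to 4.17 to 5.50 RPKM in luminal libraries. The 4 pericyte markers (Rgs5, Cspg4, Kcnj8 and Abcc9) summed to 9.21 and 29.1 RPKM and to 1.26 to 6.004 RPKM. What part such cells have in the basal values was not tested.

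The thrombospondins and decorin were also higher in basal PY230 cells. Thbs1 was at 200.5 and 143 RPKM in basal, 25.9 and 43.1 RPKM in luminal SOX10 high and 42.1 and 31.5 RPKM in luminal SOX10 low cells. Its log2 difference between basal and luminal SOX10 high cells was 2.31 (SE 0.28, limma adjusted p = 0.00122). Dcn was at 33.2 and 36.1 RPKM in basal cells against 5.999 and 11.4 RPKM in luminal SOX10 high and 8.08 and 4.57 RPKM in luminal SOX10 low cells (1.94, SE 0.32, limma adjusted p = 0.00395 for the first contrast). Both genes were higher in each basal library than in any luminal one. Thbs2 was at 12.8 and 17.0 RPKM in basal, 4.80 and 7.27 RPKM in luminal SOX10 high and 4.93 and 1.95 RPKM in luminal SOX10 low cells. Its difference between the SOX10 high groups was 1.18 (SE 0.35, limma adjusted p = 0.0345). This call was lost with a pseudocount of 0.1 and with no filter on low values (limma adjusted p = 0.0522 and 0.0731). It was also lost without either basal library (1.38 and 0.99) and without luminal SOX10 high replicate 1 (0.93). The Thbs2 difference between basal and luminal SOX10 low cells was 1.91 (SE 0.35, limma adjusted p = 0.00385).

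Osteopontin and protease nexin-1 were the members called between luminal SOX10 high and SOX10 low cells in the main fit (all libraries, no replicate term). Serpine2 fell in steps, with 206 and 178 RPKM in basal SOX10 high, 69.9 and 50.7 RPKM in luminal SOX10 high and 17.2 and 14.5 RPKM in luminal SOX10 low cells. No groups overlapped. It was 3.80-fold higher in luminal SOX10 high than in luminal SOX10 low cells (log2 difference 1.85, SE 0.19, limma adjusted p = 0.00319) and higher still in basal cells (1.67 above luminal SOX10 high, SE 0.19, limma adjusted p = 8.49e-04). Spp1 was at 91.5 and 51.5 RPKM in basal SOX10 high cells, at 94.995 and 23.0 RPKM in luminal SOX10 high cells and at 7.61 and 8.61 RPKM in luminal SOX10 low cells. The SOX10 low libraries were the lowest, and the SOX10 high groups overlapped. The luminal difference was 2.40 (SE 0.60, limma adjusted p = 0.0344). It was lost without luminal SOX10 high replicate 1 (1.40, limma adjusted p = 0.0707), without luminal SOX10 low replicates 1 and 2 (2.32 and 2.48, limma adjusted p = 0.112 and 0.113) and with no filter on low values (limma adjusted p = 0.0781). Macrophage markers summed to 95.8 and 133 RPKM in luminal SOX10 high and 60.1 and 34.2 RPKM in luminal SOX10 low cells, and Spp1 was higher in the SOX10 high library with the lower sum. Their part in the difference was not tested.

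Has2 ran the other way. It was at 10.9 and 5.12 RPKM in luminal SOX10 low cells, at 1.58 and 4.92 RPKM in luminal SOX10 high cells and at 1.85 and 2.19 RPKM in basal cells. Basal cells were below luminal SOX10 low cells (log2 difference -1.498, SE 0.44, limma adjusted p = 0.0264), while the luminal groups did not pass the test (-1.12, SE 0.44, limma adjusted p = 0.116). The call was lost with no filter on low values (limma adjusted p = 0.0605). It was also lost without either basal library (-1.42 and -1.58) and without luminal SOX10 low replicate 1 (-1.02).

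**Figure D2:**
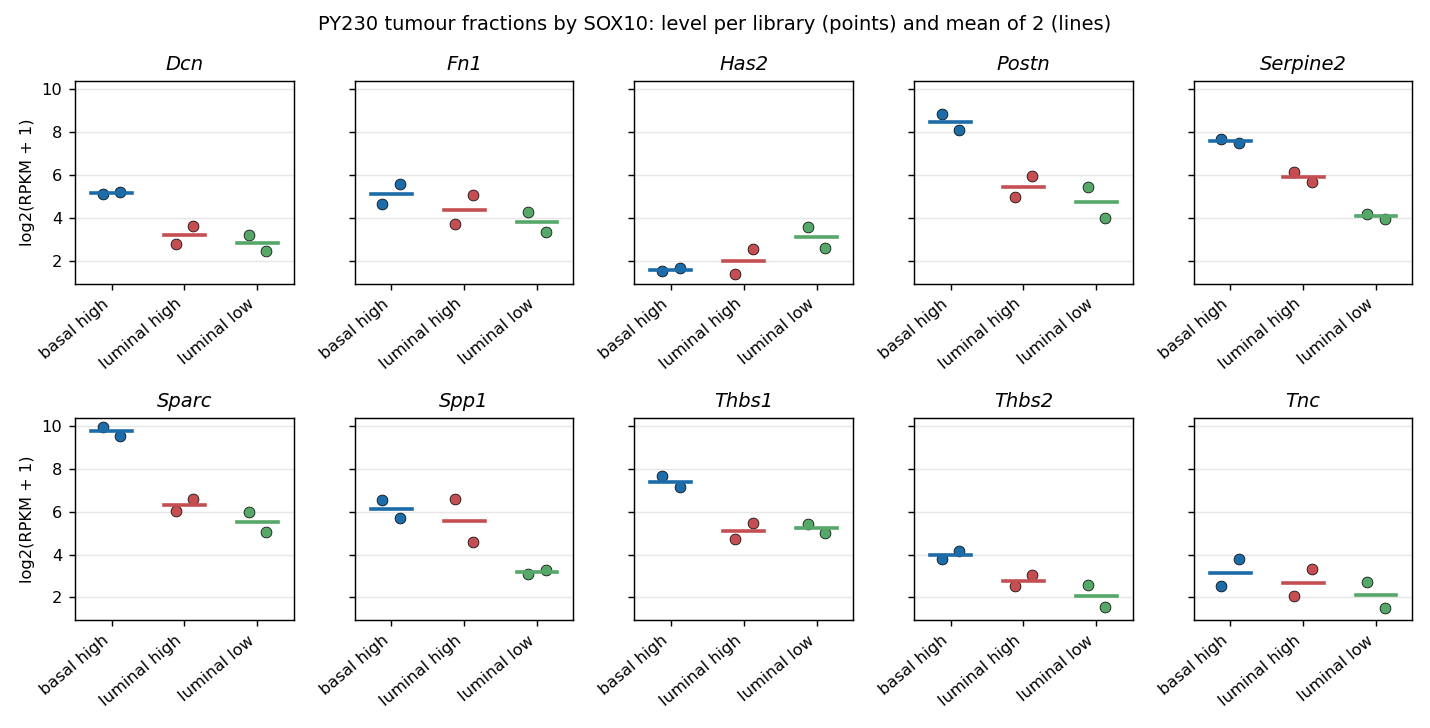
Log2(RPKM + 1) of the 10 genes in the 6 libraries of PY230 tumours, 1 panel per gene, 1 point per library (2 per group), with a line at the mean. Sparc, Postn, Thbs1 and Dcn are highest in both basal libraries, Serpine2 falls from basal to luminal SOX10 high to luminal SOX10 low cells, and for Fn1 and Tnc the luminal SOX10 high libraries overlap with both other groups.

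Fibronectin and tenascin C did not pass the test in any PY230 comparison of the main fit (all libraries, no replicate term). Fn1 was at 23.9 and 46.7 RPKM in basal, 11.97 and 32.7 RPKM in luminal SOX10 high and 18.3 and 9.09 RPKM in luminal SOX10 low cells. Tnc was at 4.74 and 12.8, 3.15 and 8.92, and 5.54 and 1.82 RPKM in the same groups. For both genes the luminal SOX10 high libraries overlapped with those of the other groups. The fibroblast markers summed to 162 and 302 RPKM in basal, 98.3 and 185 RPKM in luminal SOX10 high and 126 and 62.2 RPKM in luminal SOX10 low cells. Fn1 ranked the 6 libraries in the same order as that sum, in 6 of 6, and Tnc, Thbs2 and Dcn each in 4 of 6. Postn shared 3 ranks of 6 with it, Sparc, Thbs1 and Serpine2 shared 1 each, and Spp1 and Has2 shared 0. With the sum of the basal markers, Sparc shared 6 ranks of 6, Postn and Serpine2 4 each and Thbs1 3. Thbs2 and Dcn shared 2 each with that basal sum, Fn1, Tnc and Has2 1 each, and Spp1 0. The gene lists do not overlap, and the part of fibroblasts in these values was not tested. The largest log2 difference of Fn1 was 1.304 between basal and luminal SOX10 low cells (SE 0.54, limma adjusted p = 0.0779). With 1 library left out, this difference ranged from 0.83 to 1.77, and the libraries of these groups did not overlap.

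**Figure D3:**
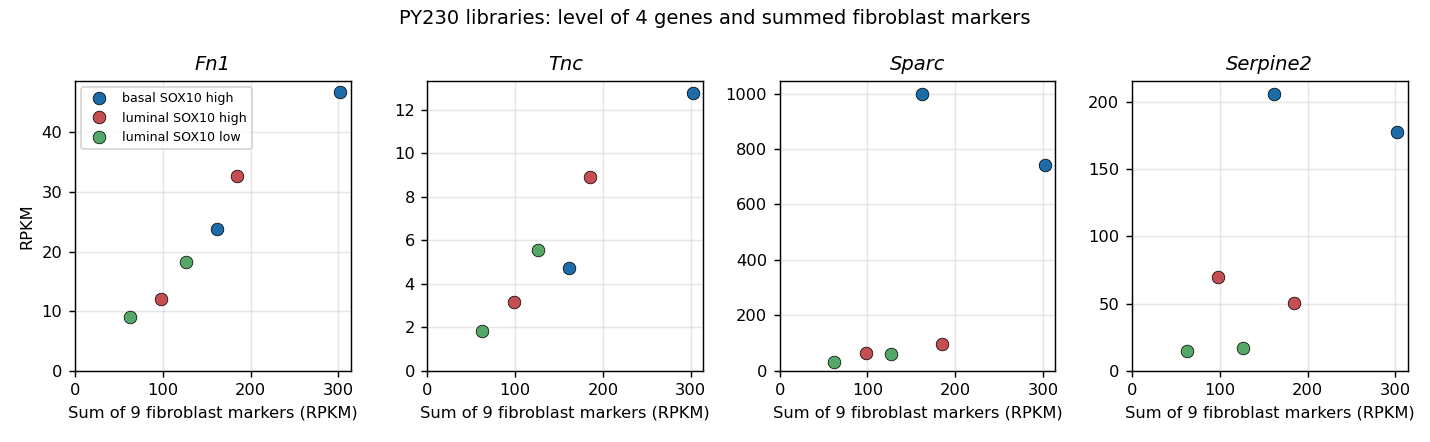
RPKM of Fn1, Tnc, Sparc and Serpine2 against the summed RPKM of the 9 fibroblast markers in the 6 PY230 libraries, both axes linear, 1 point per library and coloured by group. Fn1 is ordered as the sum, from 9.09 RPKM at 62.2 to 46.7 RPKM at 302, while Sparc lies apart in the basal libraries and Serpine2 separates all 3 groups.

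Of the 13136 genes tested in PY230 cells, 22.6% changed between luminal SOX10 high and SOX10 low cells, 12.6% higher and 10% lower, beside 2 members higher and 0 lower. Without luminal SOX10 high replicate 1 or either luminal SOX10 low library, 1 member was called here and 470 to 871 of all genes, against 2974 with all libraries. Basal cells had 6 members higher and 0 lower than luminal SOX10 high cells (42% of all genes changed, 13.8% higher and 28.2% lower), and 7 higher and 1 lower than luminal SOX10 low cells (55.2% changed, 21.8% higher and 33.4% lower). The members' median log2 difference was 0.66, 1.43 and 2.25 in these 3 comparisons, beside 0.01, -0.21 and -0.16 over all genes. After quantile normalization the share of calls higher in basal than in luminal SOX10 high cells moved from 32.9% to 46.2%, and the members' counts stayed at 6 and 0. Of 59 listed matrix genes tested, 33 were higher and 6 lower in basal cells in each of the comparisons with luminal cells. Ctgf was at 1581 ± 371 RPKM (SD, n = 2) in basal, 76.0 ± 0.48 RPKM in luminal SOX10 high and 32.9 ± 11.1 RPKM in luminal SOX10 low cells. Adamts1, a versican-cleaving protease, was at 159 ± 46.9 RPKM in basal and 3.76 ± 1.65 RPKM in luminal SOX10 low cells. Tgfb3 was lower in basal cells (11.6 ± 0.84 against 52.2 ± 20.9 RPKM in luminal SOX10 high cells, limma). So was Tgfb1 (4.10 ± 0.17 against 30.5 ± 1.49 RPKM in luminal SOX10 low cells). Between the luminal groups 14 listed genes were higher and 10 lower in SOX10 high cells, and together they numbered 8 without luminal SOX10 high replicate 1, and 11 and 6 without luminal SOX10 low replicates 1 and 2. The growth factor Tgfb2 was at 9.32 ± 4.79 against 0.787 ± 0.103 RPKM and the SPARC relative Smoc1 at 11.6 ± 6.98 against 1.40 ± 0.81 RPKM, while the membrane protease Mmp14 (45.8 ± 12.8 against 98.6 ± 1.01 RPKM) and the receptor Tgfbr2 (25.7 ± 6.44 against 56.1 ± 6.5 RPKM) were lower.

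**Figure D4:**
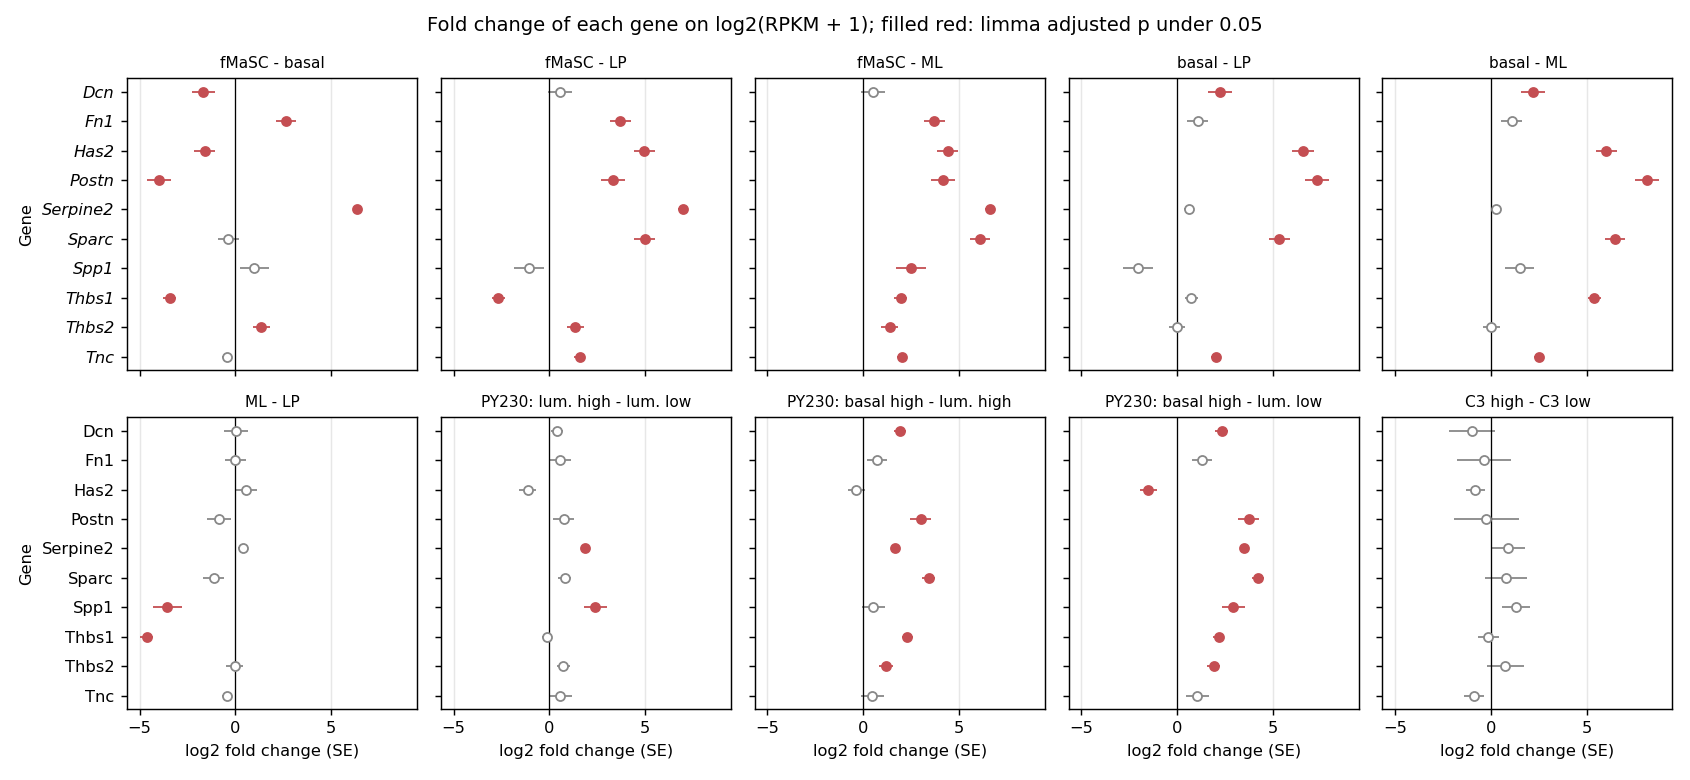
Log2 differences of RPKM + 1 for the 10 genes in each of the 10 comparisons, with the standard error of limma as bars, filled red where the adjusted p was under 0.05 (LP is luminal progenitor, ML is mature luminal, lum. is luminal, and high and low refer to SOX10). Serpine2 lies between 6.37 and 6.99 in the 3 comparisons of fMaSC, and no gene is filled in the C3-1-TAg panel.

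In C3-1-TAg tumours no member passed the test between SOX10 high and SOX10 low cells, and the spread between libraries of 1 group was very wide. All values of this table above 0 had 2 taken off, since the lowest was 2.001. Fn1 was at 6.04, 258, 217, 641 and 154 RPKM in SOX10 high replicates 1 to 5 and at 427, 9.89, 333 and 509 RPKM in SOX10 low replicates 1 to 4. Postn was at 3.22, 437, 21.7, 75.7 and 69.2 RPKM in SOX10 high and at 147, 1.22, 1026 and 27.1 RPKM in SOX10 low libraries. Sparc was at 5.24, 79.8, 35.0, 168 and 138 RPKM and at 127, 3.51, 61.0 and 24.3 RPKM. All 3 genes were lowest in the same pair of libraries, SOX10 high replicate 1 and SOX10 low replicate 2, and the groups overlapped. The highest value exceeded the lowest 106-fold for Fn1, 838-fold for Postn and 47.8-fold for Sparc. The SD of log2(RPKM + 1) for Postn was 2.47 in the SOX10 high and 3.75 in the SOX10 low group, where the medians of all genes tested were 0.40 and 0.36.

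Decorin and thrombospondin 2 were low in the same pair. Dcn was at 0.064, 1.08, 11.3, 16.6 and 13.8 RPKM in SOX10 high and at 52.6, 0.636, 48.6 and 3.21 RPKM in SOX10 low libraries. Thbs2 was at 0.073, 1.96, 5.05, 10.7 and 16.6 RPKM and at 16.2, 0.095, 2.75 and 0.328 RPKM. The fibroblast markers summed to 4.68 and 6.94 RPKM in SOX10 high replicate 1 and SOX10 low replicate 2, where 1 of 9 reached 1 RPKM, and to 28.7 to 364 RPKM in the other 7 libraries, where 5 to 9 did. Dpt was at 0.018 RPKM in SOX10 high replicate 1 and listed at 0 in SOX10 low replicate 2. In each of these libraries 6 of the 10 members had a value among the lowest 2 of the 9: these 5 genes with Has2 in SOX10 high replicate 1 and with Serpine2 in SOX10 low replicate 2. The median over the members was 5.64 and 5.69 RPKM there, against 28.4 to 124 RPKM in the others. Basal markers were highest in these libraries, at 781 and 1010 RPKM, against 96.3 to 512 RPKM in the others. What part the fibroblast content has in the members' values was not tested.

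The remaining members did not follow those libraries as a group. Tnc was at 109, 46.3, 15.5, 54.3 and 39.0 RPKM in SOX10 high and at 124, 73.3, 125 and 39.6 RPKM in SOX10 low libraries, so its lowest value was in SOX10 high replicate 3. Thbs1 was at 169, 205, 354, 67.9 and 48.8 RPKM and at 125, 196, 171 and 106 RPKM, the narrowest range of the members with 7.26-fold. Has2 stayed at 0.219 to 7.39 RPKM throughout. Serpine2 was at 40.6, 22.8, 44.2, 209 and 189 RPKM in SOX10 high and at 97.9, 7.86, 18.8 and 114 RPKM in SOX10 low libraries. Spp1 had the highest RPKM of the members in all libraries but SOX10 low replicate 3, where Postn was higher, and SOX10 low replicate 4, where Fn1 was. It was at 626, 440.3, 2951, 3135 and 2666 RPKM in SOX10 high and 1777, 488, 274.8 and 501 RPKM in SOX10 low libraries. In SOX10 high replicate 4 it ranked first among all genes. The 3 highest values were all in SOX10 high libraries, and the groups overlapped through SOX10 high replicates 1 and 2 and SOX10 low replicate 1. The macrophage markers summed to 2609 RPKM in SOX10 low replicate 1 (Lyz2 631, C1qa 624, Tyrobp 246 and Ptprc 19.6 RPKM), against 13.02 to 132 RPKM in the other 8 libraries. Their part in the 1777 RPKM of Spp1 was not tested.

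**Figure D5:**
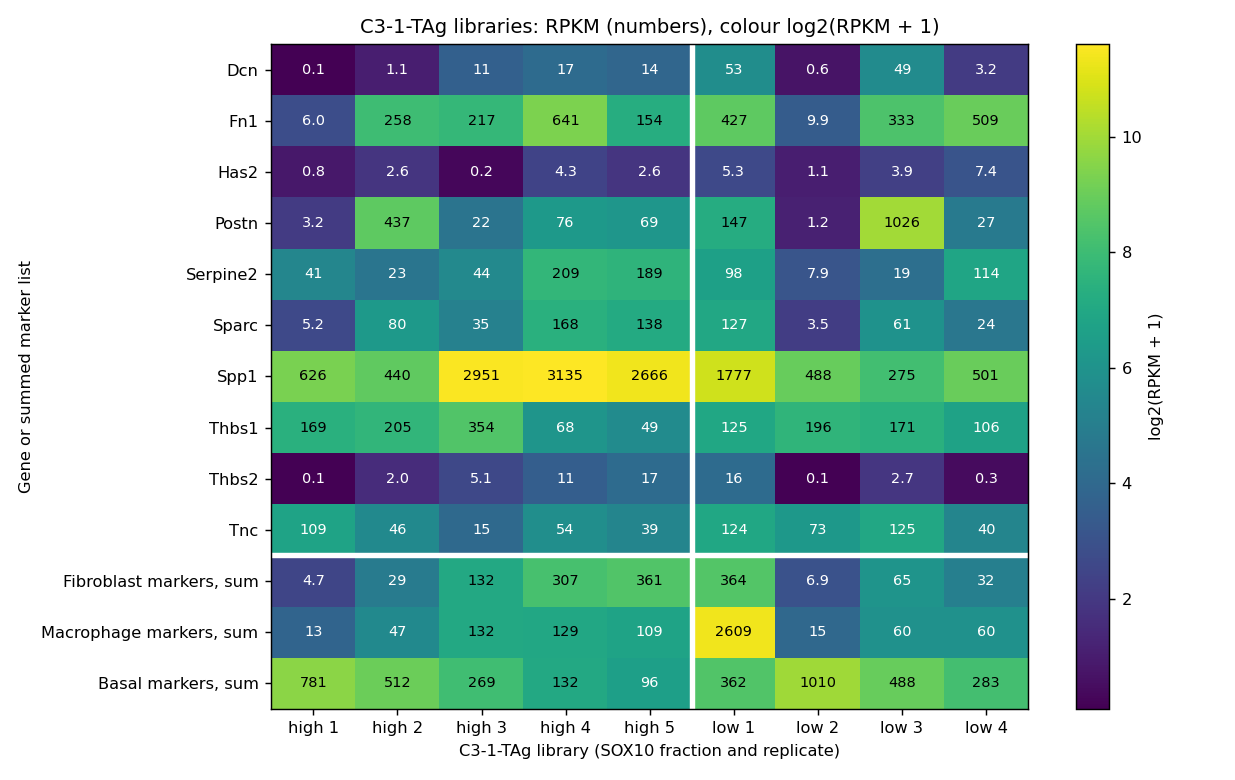
Heat map of the 10 genes and, below them, of the summed fibroblast, macrophage and basal markers in the 9 C3-1-TAg libraries, 1 column per library, with the RPKM printed in each cell and the colour giving log2(RPKM + 1), dark for low values. SOX10 high replicate 1 and SOX10 low replicate 2 are darkest for Fn1, Postn, Sparc, Dcn and Thbs2 and for the fibroblast sum, and the macrophage sum is brightest in SOX10 low replicate 1.

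Of the 11948 genes tested here, 0.0418% were called in either direction, all 5 of them higher in SOX10 high cells, and 365 genes had an unadjusted limma p under 0.05. None of the 10 members was called or had an unadjusted p under 0.05, and all adjusted p-values of limma were 0.9997. The log2 difference SOX10 high minus SOX10 low was 1.32 for Spp1 (SE 0.73, n = 5 against 4), 0.91 for Serpine2 (SE 0.88), 0.79 for Sparc (SE 1.11), -0.87 for Tnc (SE 0.51), -0.35 for Fn1 (SE 1.41) and -0.25 for Postn (SE 1.70). An exact permutation test (two-sided, 126 splits) was run on all 10 members. The smallest p was 0.175 for Spp1 and then 0.183 for Tnc and 0.206 for Has2, where the smallest the test can give is 0.00794. Without SOX10 high replicate 1 and SOX10 low replicate 2, the difference of Fn1 was -0.61 (SE 0.47, limma adjusted p = 0.939), that of Postn -0.92 (SE 1.25, limma adjusted p = 0.959) and that of Spp1 1.54 (SE 0.85, limma adjusted p = 0.939). The members' calls stayed at 0, as did those of the 56 listed matrix genes tested, and calls over all genes went from 5 to 0. With 1 library left out the calls over all genes ranged from 0 to 11.

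Across the 9 C3-1-TAg libraries, the genes most like a member by Pearson's r of log2(RPKM + 1) are given as a description, since the libraries share their tumour model. No r was computed without the 2 libraries low in fibroblast markers. For Thbs2 the closest of 11948 genes were Lrrc15 (r = 0.984), Col1a1 (0.979), a fibroblast marker, and Col5a2 (0.970). For Fn1 they were Pianp (0.990), Phf23 (0.985) and Mef2a (0.982), and for Sparc Hccs (0.978), Pmaip1 (0.972) and Gsg2 (0.966). For Dcn they were Il33 (0.980), C1qtnf6 (0.941) and Gpx3 (0.932), and for Spp1 Ppargc1a (0.950), Sowahc (0.948) and Klrb1a (0.946). Among the members themselves Sparc and Thbs2 (0.87), Sparc and Fn1 (0.85) and Sparc and Postn (0.79) were the most alike, and Serpine2 and Thbs1 were the most opposed (-0.75). In the 6 PY230 libraries Fn1 was most like C1qtnf3 (0.995), Col1a1 (0.994) and Has1 (0.993), and Sparc most like Bgn (0.999), a proteoglycan related to decorin.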

How the data were processed

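RNA-seq was made with SmartSeq2 from about 2000 sorted cells per library, with 18 PCR cycles, Nextera XT tagmentation and 10 cycles after it, read from 1 end at 50 or 75 bp, per the labels' protocols. It marks no strand and holds no molecular identifiers. The deposited values are RPKM per gene in 3 tables that the authors made separately, with FastQC, HISAT2 2.0.5, StringTie 1.3.1c and the build mm9 per the submitters' processing notes. No source used here gives the annotation or read totals. In the C3-1-TAg table the lowest value above 0 was 2.001, so 2 was taken off each value above 0, and 2200 symbols were respelled to match in capitals.

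limma 3.58.1 (R 4.3.3; intensity trend, no replicate term) was fitted to log2(RPKM + 1) of all groups of a table together. Genes entered where 2 or more libraries (4 for C3-1-TAg) reached 1 RPKM. Calls had a Benjamini-Hochberg adjusted p under 0.05 over all genes tested. Folds of RPKM means are given where named, and the log2 scale understates changes of low genes. The code was tested on simulated data with 200 changed genes. All 10 members passed the filter in each table. Alternatives were a pseudocount of 0.1, no filter, quantile normalization, median-of-ratios factors, no trend, a replicate block, leaving out each library and, for C3-1-TAg, the values as deposited. A crossed replicate block and leaving out the 2 C3-1-TAg libraries lowest in fibroblast markers were chosen after seeing the data. The members and lists were chosen with earlier results of these data known. The text names all members, the 2 listed matrix genes with the largest called change per comparison and direction (some are left out here for length), and the 3 genes most like a member.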

Additional observations from a re-analysis of the deposited data

Results flagged for a closer look

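In the C3-1-TAg table, 4 of the 20 groups formed by the 10 genes in SOX10 high and SOX10 low cells had a library far from the others, its gap to the nearest value, divided by the range of the group, exceeding the 95% critical value of Dixon's test. Chance flags about 1 in 20 groups where values are normally distributed, and the rate for these untransformed RPKM values is not known. Postn stood apart in SOX10 high replicate 2, at 437 RPKM (gap over range 0.833), and in SOX10 low replicate 3, at 1026 RPKM (0.857). In these libraries the 4 pericyte markers summed to 55.04 and 37.85 RPKM. Cspg4 made up nearly all of this, at 54.9 and 37.2 RPKM, and was the only 1 of them to reach 1 RPKM. Its part in the values of Postn was not tested. Spp1 stood apart in SOX10 low replicate 1 with 1777 RPKM (0.849), and so did Thbs2 in the same library with 16.2 RPKM (0.835), the library with macrophage markers summing to 2609 RPKM and fibroblast markers to 364 RPKM.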

How the results depend on the processing

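Of the 100 results of single members, 53 were called, 41 of these under every alternative run for them and 12 not, and 0 called results reversed. Of the results not called, 21 were called and 20 changed sign under some alternative. The cause was not tested in any case. The number of members called between fMaSC and basal cells was 7, and 4 with a pseudocount of 0.1 and with no filter on low values. Between luminal SOX10 high and SOX10 low PY230 cells it was 2, and 1 with no filter. With 1 library left out the number ranged from 4 to 6 for fMaSC against basal cells, from 4 to 8 for basal cells against luminal progenitors, from 1 to 2 for mature luminal cells against luminal progenitors, and from 1 to 3 for the luminal PY230 groups, where a lone library was assumed to vary like the others. For the listed matrix genes these ranges were 7 to 10 between mature luminal cells and progenitors and 6 to 28 between the luminal PY230 groups.

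Several differences that were not called changed sign. Thbs2 between basal and mature luminal cells was -0.43 with a pseudocount of 0.1, -0.11 under quantile scaling and -0.051 with median-of-ratios factors, and between mature luminal cells and progenitors 0.038, 0.057 and 2.69e-04. Quantile normalization gave -0.048 for Dcn in fMaSC against mature luminal cells, -0.051 for Serpine2 in basal against mature luminal cells and 0.12 for Fn1 in mature luminal cells against progenitors, where median-of-ratios factors gave 0.044 for Fn1. With 1 library left out, the ranges that crossed 0 were -0.23 to 2.20 for Spp1 in fMaSC against basal, -0.60 to 1.64 for Dcn in fMaSC against mature luminal, -0.63 to 0.62 for Thbs2 in basal against luminal progenitor, and -0.60 to 0.65 for Thbs2 and -0.070 to 0.56 for Serpine2 in basal against mature luminal cells. In mature luminal cells against progenitors they were -0.30 to 0.28 for Fn1, -1.86 to 0.13 for Postn, -0.37 to 0.32 for Thbs2 and -1.08 to 1.16 for Dcn. In basal against luminal SOX10 high PY230 cells they were -0.16 to 1.10 for Tnc, -0.46 to 1.53 for Spp1 and -0.97 to 0.22 for Has2, and between the luminal PY230 groups -0.11 to 1.27 for Fn1, -0.048 to 1.21 for Tnc, -0.48 to 0.24 for Thbs1 and -0.023 to 0.80 for Dcn. In C3-1-TAg cells they were -1.67 to 0.71 for Fn1, -1.79 to 1.16 for Postn, -0.14 to 1.56 for Sparc and -0.48 to 0.23 for Thbs1.

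Same-numbered libraries did not deviate together in all pairs (PY230 correlations 0.30, -0.20 and -0.26, C3-1-TAg correlations -0.34, -0.33, -0.072 and 0.20), so the numbers were not taken to pair them. In the normal table the correlations were all above 0. Basal cells had 0.22 with mature luminal cells and 0.11 with luminal progenitors, the 2 luminal populations had 0.074, and fMaSC had 3.9e-04 to 0.0082 with the others. The labels state no pairing, and none was assumed there either. In the C3-1-TAg table the closest libraries carried different numbers, SOX10 high replicate 1 with SOX10 low replicate 2 (0.82) and SOX10 high replicate 2 with SOX10 low replicate 3 (0.70), and no fit with such pairs was run. A replicate block added the call of Spp1 between basal cells and luminal progenitors (-2.05, limma adjusted p = 0.0421), left the other members' calls as they were, and gave 0.23 for Thbs1 in C3-1-TAg cells. With the numbers of the luminal SOX10 low libraries crossed in the block, 6 members were called between the luminal PY230 groups, 5 higher and 1 lower. The unknown depth, 2 libraries a group in the normal and PY230 tables and the spread among C3-1-TAg libraries limit what differences could be detected.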
